A study of Homo sapiens with 8 samples.

Results

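The transcripts followed here are 10 genes that ERK signalling is known to induce and whose products feed back on it or carry its output: DUSP4, DUSP5, DUSP6, SPRY2, SPRY4, SPRED1, SPRED2, ETV4, ETV5 and PHLDA1. They were picked by gene symbol, with no threshold on their values, but with earlier results of these data known. Their shares beside all tested genes are therefore descriptive. In GENCODE release 29 (GRCh38) all are protein-coding genes: DUSP4 at chr8:29333064-29350668, DUSP5 at chr10:110497838-110511544, DUSP6 at chr12:89347232-89353271, SPRY2 at chr13:80335976-80340951 and SPRY4 at chr5:142310427-142326455. SPRED1 lies at chr15:38252326-38357249, SPRED2 at chr2:65310851-65432637, ETV4 at chr17:43527844-43579620, ETV5 at chr3:186046308-186110318 and PHLDA1 at chr12:76025447-76033932. All 10 were among the 61228 gene names in the count tables, and all 10 passed the low-count filter that left 21307 genes for testing. Their levels were compared between the degrader ACBI1 and the solvent DMSO in H1975 and in HCC44, and between the lines in DMSO.

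H1975 and HCC44 are established human lung cancer cell lines, and the labels give the genotype of each as WT. H1975 is known to carry activating EGFR mutations. The 4 groups were H1975 with DMSO, H1975 with ACBI1, HCC44 with DMSO and HCC44 with ACBI1, each with 2 replicates, and all received their treatment for 96 hours. The dose is written as 1 mM ACBI1, a unit that is unusually large for such a compound and could not be checked. ACBI1 is a bifunctional molecule that brings the VHL ubiquitin ligase to the SWI/SNF proteins SMARCA2, SMARCA4 and PBRM1 and so leads to their degradation. The labels do not say whether replicates were separate cultures, so the p-values measure the spread between these libraries, which may be technical. Each line stands for itself only, and ERK activity was not measured.

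In the MAPK pathway, receptor tyrosine kinases activate RAS, and RAF, MEK and ERK kinases then pass the signal on. ERK induces its own brakes: dual-specificity phosphatases remove phosphate from ERK, while Sprouty and SPRED proteins act upstream, at the level of receptors, RAS and RAF. ERK signalling also relieves repression by CIC, which holds down ETV4, ETV5 and several of the brakes, so the levels of these transcripts are widely read as a measure of pathway output in lung adenocarcinoma.

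Promoter sequence was available from RefSeq (GRCh38.p14) for 6 of the 10 genes, and DUSP4, DUSP5, ETV4 and ETV5 had no entry. The 250 bases before the RefSeq start in that table are shown for 4 genes that span the observed responses, 5′ to 3′ on the gene's own strand, which is the minus strand for all 4. These starts differ from the outer gene ends of GENCODE release 29 given above, and the SPRY4, PHLDA1 and DUSP6 windows lie inside the GENCODE gene. SPRY2 has further RefSeq windows, at chr13:80340109-80340358 and chr13:80339660-80339909, that are not shown. SPRY4 was lower with ACBI1 in both lines, SPRY2 and PHLDA1 were higher in HCC44, and DUSP6 passed the test in neither line. Capitals mark matches, on either strand, to the motifs searched.
SPRY4, chr5:142324248-142324497: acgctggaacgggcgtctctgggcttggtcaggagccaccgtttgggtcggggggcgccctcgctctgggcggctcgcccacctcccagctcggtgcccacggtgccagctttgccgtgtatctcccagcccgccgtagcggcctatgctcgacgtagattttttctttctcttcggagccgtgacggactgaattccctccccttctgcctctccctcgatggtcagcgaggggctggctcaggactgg
SPRY2, chr13:80341127-80341376: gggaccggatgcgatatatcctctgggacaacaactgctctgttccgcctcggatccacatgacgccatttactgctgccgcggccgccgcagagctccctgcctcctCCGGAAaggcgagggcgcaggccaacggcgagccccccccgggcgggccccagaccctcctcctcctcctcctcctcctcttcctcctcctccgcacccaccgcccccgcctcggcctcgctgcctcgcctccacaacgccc
PHLDA1, chr12:76031777-76032026: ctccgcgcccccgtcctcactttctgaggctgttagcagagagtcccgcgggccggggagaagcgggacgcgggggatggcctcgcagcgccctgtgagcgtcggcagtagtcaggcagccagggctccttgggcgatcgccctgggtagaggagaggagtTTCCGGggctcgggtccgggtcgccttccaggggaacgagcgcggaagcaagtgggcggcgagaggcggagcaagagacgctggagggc
DUSP6, chr12:89352502-89352751: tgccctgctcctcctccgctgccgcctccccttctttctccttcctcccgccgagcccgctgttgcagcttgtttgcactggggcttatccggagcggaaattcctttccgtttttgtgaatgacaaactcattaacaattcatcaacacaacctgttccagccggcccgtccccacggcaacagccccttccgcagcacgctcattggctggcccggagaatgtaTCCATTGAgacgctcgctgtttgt

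The motifs were the ETS core CCGGAA, the CIC octamer in its forms TGAATGAA, TGAATGGA, TCAATGAA and TCAATGGA, the cyclic AMP response element TGACGTCA, the AP-1 site TGANTCA and the CArG box. Each was searched on both strands, and no matches overlapped one another in these windows. The ETS core was present once in the SPRY2 window shown and once, on the opposite strand, in the PHLDA1 window. The other SPRY2 windows had no match to any of the motifs. The ETS core was thus in 2 of the 9 windows of the 6 genes, against 14.5% of 35116 promoter windows of the same length. The CIC octamer was present once in the DUSP6 window, on the opposite strand, against 3.18% of all windows. The CRE, AP-1 and CArG motifs had no match in any of the 9 windows of the 6 genes, and were present in 1.65%, 6.57% and 1.16% of all windows. These matches describe letters in a window and were not tested as sites.

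Each library held 62467286 to 70455517 reads counted in genes, and for each of the 8 the closest other library was its replicate. The 6 epithelial markers were each above 1 CPM in every group, with summed levels of 5137 to 5393 CPM in H1975 DMSO, 2331 to 2808 in H1975 ACBI1, 940 to 980 in HCC44 DMSO and 1199 to 1658 in HCC44 ACBI1. The 5 leukocyte markers summed to 2.05 to 3.67 CPM in all groups with CD3E at 0, and the 4 endothelial markers to 0.544 to 0.636 CPM in H1975 DMSO, 0.439 to 0.636 in H1975 ACBI1, 3.37 to 4.15 in HCC44 DMSO and 1.06 to 1.15 in HCC44 ACBI1. The 6 fibroblast markers, led by COL1A1, summed to 48.9 to 72.0 CPM in H1975 DMSO and 25.5 to 30.5 in H1975 ACBI1, and to 74.4 to 92.7 and 207 to 411 CPM in HCC44, with DCN at 0 throughout. These marker sums moved with treatment, but members of a list did not all move together. In HCC44, 4 of the 6 epithelial markers were higher with ACBI1 and 2 lower. Mean KRT7 went from 441 to 936 CPM and KRT8 from 217 to 151 CPM. Of the 4 fibroblast markers tested there, 3 were higher and 1 lower. Mean COL1A1 went from 80.3 to 302 CPM, while COL1A2 was at 0 counts with ACBI1. Mean ITGAM went from 0.127 to 1.43 CPM and CD14 from 3.38 to 1.05. The part of these markers in the results was not tested. In bulk libraries, fewer cells of a type and less RNA per cell cannot be told apart.

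Across the 10 genes, the response to ACBI1 was split in HCC44, with 4 log2 fold changes above 0 and 6 below. In H1975, 9 lay below 0, most of them not called, and only that of ETV4 lay above. Values are CPM, the count as a share of the library total after TMM scaling, and a gene was called when its adjusted p from edgeR's quasi-likelihood test was under 0.05. In H1975, 4 of 10 were called, 1 higher and 3 lower, where 31.3% of all tested genes were called, 14.6% higher and 16.7% lower. In HCC44, 6 of 10 were called, 3 higher and 3 lower, where 34.9% of all tested genes were called, 17.5% higher and 17.4% lower. DUSP4, DUSP5 and SPRY4 fell in both lines, ETV4 rose in both, SPRY2 and PHLDA1 rose in HCC44, and DUSP6, SPRED1, SPRED2 and ETV5 were called in neither. The median log2 fold change of the 10 was -0.26 in H1975 and -0.11 in HCC44, beside -0.014 and 0.0060 over all tested genes. With library totals in place of TMM factors the median tested gene moved up by 0.20 in H1975 and 0.091 in HCC44 on the log2 scale, and higher genes then made up 72.3% of calls in H1975, against 46.6%, and 60.5% in HCC44, where TMM gave 3720 higher and 3718 lower. Directions are therefore relative to the TMM scale.

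**Figure D1:**
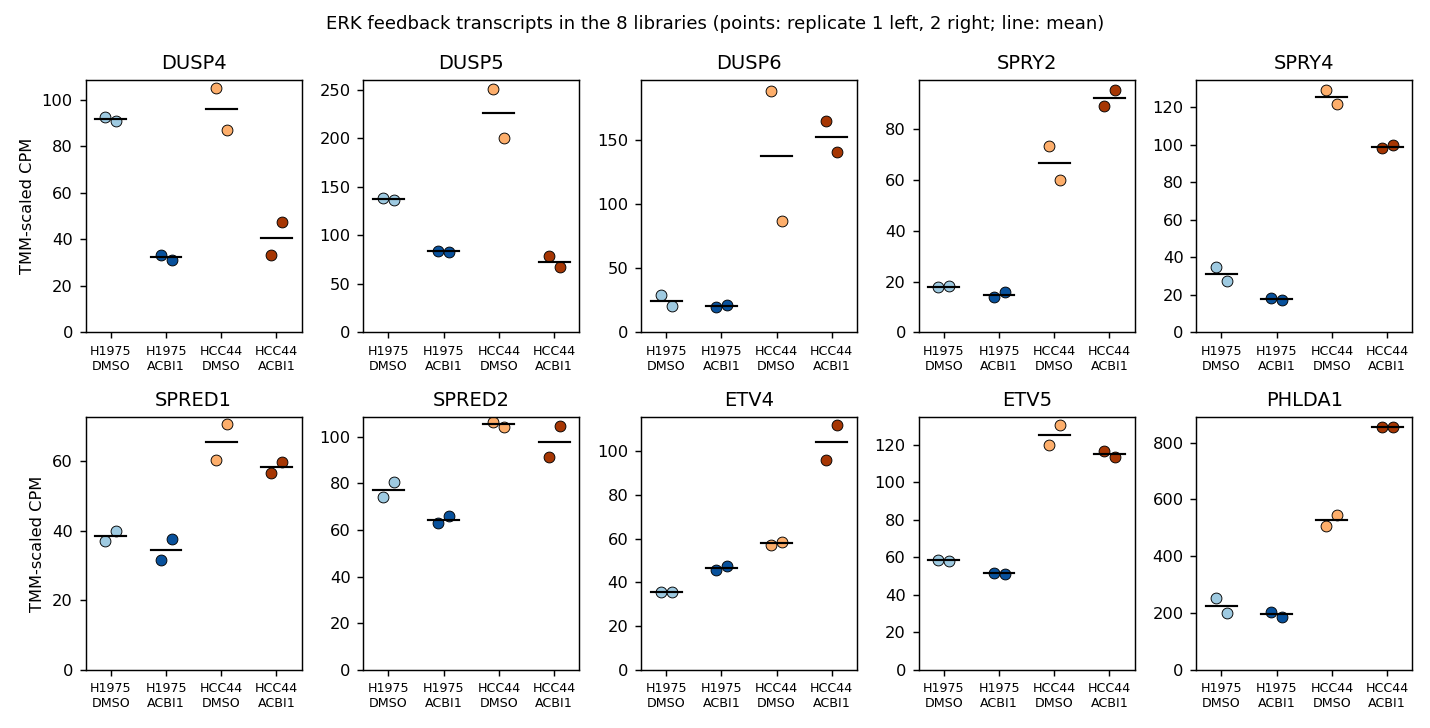
TMM-scaled CPM of the 10 transcripts in each of the 8 libraries, with replicate 1 on the left, replicate 2 on the right and a line at the group mean, on axes that start at 0. DUSP4 and DUSP5 sit lower with ACBI1 in both lines, ETV4 sits higher in both, and the HCC44 DMSO libraries of DUSP6 lie at 188 and 86.2 CPM.

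DUSP4, a nuclear phosphatase that acts on ERK and JNK, was at 92.3 and 90.9 CPM in H1975 DMSO and at 33.4 and 31.1 CPM with ACBI1. In HCC44 it was at 105 and 86.9 CPM with DMSO and at 33.4 and 47.5 CPM with ACBI1. In both lines the ACBI1 libraries lay below both DMSO libraries, with no overlap, as did those of 67.3% of tested genes in H1975 and 66.8% in HCC44 in one direction or the other. In H1975 DUSP4 fell 2.84-fold (log2 fold change -1.51, SE 0.15, adjusted p 9.85e-05). In HCC44 it fell 2.37-fold (log2 fold change -1.24, SE 0.15, adjusted p 0.000178). The difference between the lines was 0.26 (95% interval -0.21 to 0.74) and was not called. The calls in both lines were kept under all 17 alternative settings.

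DUSP5, a nuclear phosphatase selective for ERK, was at 139 and 136 CPM in H1975 DMSO and at 84.0 and 83.1 CPM with ACBI1. In HCC44 it was at 251 and 201 CPM with DMSO and at 78.3 and 67.0 CPM with ACBI1. DMSO levels were thus higher in HCC44, while the HCC44 ACBI1 libraries lay below those of H1975 ACBI1. In H1975 DUSP5 fell 1.65-fold (log2 fold change -0.72, SE 0.12, adjusted p 0.00107), and in HCC44 it fell 3.11-fold (-1.64, SE 0.12, adjusted p 5.52e-06). The fall was larger in HCC44, with a log2 difference of -0.92 (SE 0.16, adjusted p 0.00381) that was called under all 16 alternatives run for it.

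DUSP6, the cytoplasmic phosphatase that is the most widely used ERK readout of the family, showed no call. It was at 29.2 and 20.3 CPM in H1975 DMSO and at 19.8 and 21.7 CPM with ACBI1. In HCC44 it was at 188 and 86.2 CPM with DMSO and at 164 and 140.1 CPM with ACBI1, so both ACBI1 libraries fell between the DMSO libraries. The log2 fold change was -0.26 (95% interval -1.08 to 0.57) in H1975 and 0.15 (95% interval -0.65 to 0.95) in HCC44. The H1975 interval is wide enough to hold a change as large as that of DUSP5 in the same line. Without HCC44 DMSO replicate 1 the HCC44 value was 0.81 and called (adjusted p 0.0197), and without HCC44 DMSO replicate 2 it was -0.30 and not called (adjusted p 0.305). An antisense gene of GENCODE release 29 covers 40.5% of the exon length of DUSP6, and because the strand setting of the counting is not given, its reads could not be told apart.

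Several early response genes showed the same kind of gap between the HCC44 DMSO libraries. DUSP6 was 2.18 times as high in replicate 1 as in replicate 2, a gap larger than that of 96.4% of tested genes in that group. DUSP1 was 2.34, FOS 2.63, FOSB 3.42, KLF6 2.22 and EGR1 1.80 times as high in the same library. In HCC44 ACBI1 the ratios of replicate 1 to replicate 2 were 1.17 for DUSP6, 0.768 for DUSP1, 0.825 for FOS and 0.805 for FOSB. The other feedback transcripts differed less between the HCC44 DMSO replicates, from 0.854-fold for SPRED1 to 1.25-fold for DUSP5. FOS, FOSB, KLF6 and EGR1 were singled out after their values were seen, and the source of the gap was not tested.

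**Figure D2:**
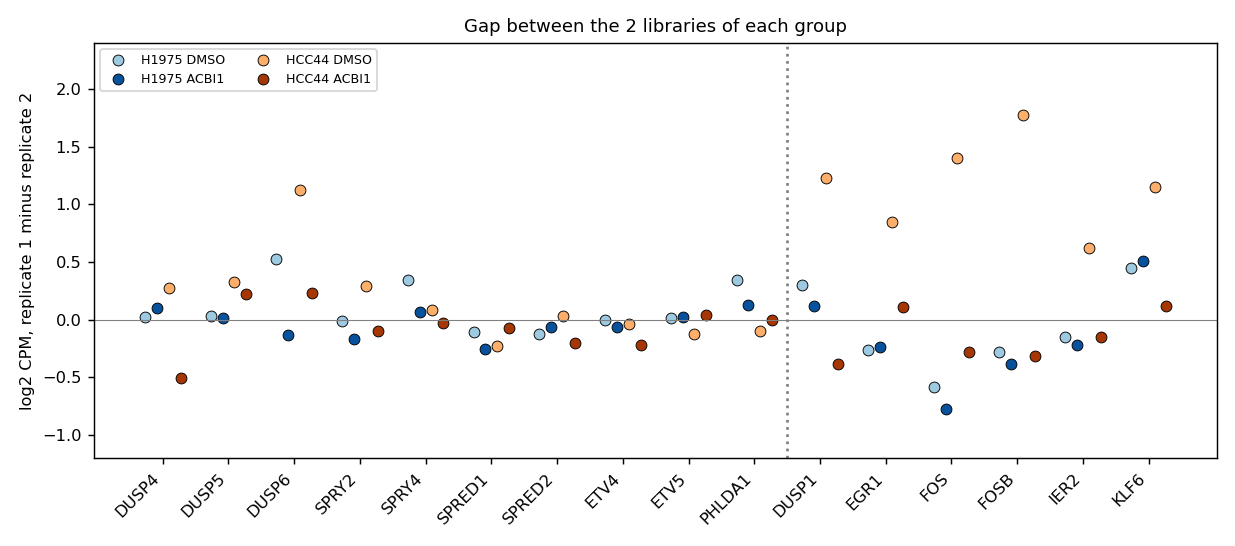
Gap between the 2 libraries of each group, as log2 CPM of replicate 1 minus replicate 2, for the 10 feedback transcripts and, right of the dotted line, for 6 early response genes. In HCC44 DMSO the gap was 1.12 for DUSP6, 1.40 for FOS and 1.78 for FOSB, and it lay near 0 for ETV4 and SPRED2.

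The products of the Sprouty genes restrain receptor signalling to RAS and RAF. SPRY4 was at 34.9 and 27.5 CPM in H1975 DMSO and at 18.3 and 17.5 CPM with ACBI1, and at 129 and 122 against 98.0 and 99.8 CPM in HCC44. All ACBI1 libraries lay below the DMSO libraries of their line. SPRY4 fell 1.74-fold in H1975 (log2 fold change -0.80, SE 0.11, adjusted p 0.000576) and 1.27-fold in HCC44 (-0.34, SE 0.11, adjusted p 0.034). The HCC44 call was near the threshold: it was lost with upper-quartile factors, with library totals and with any single HCC44 library left out, and its adjusted p ranged from 0.00589 to 0.165. The difference between the lines was 0.46 (95% interval 0.11 to 0.81, adjusted p 0.0705). It ranged from 0.28 without H1975 DMSO replicate 1 to 0.57 without H1975 DMSO replicate 2, and was called under 3 of 16 alternatives: that last one (adjusted p 0.0248), no filter (0.0301) and a replicate block (0.0159).

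SPRY2 was at 17.9 and 18.1 CPM in H1975 DMSO and at 14.0 and 15.7 CPM with ACBI1. In HCC44 it was at 73.2 and 59.9 CPM with DMSO and at 88.9 and 95.3 CPM with ACBI1. The groups did not overlap in either line, and they were ordered in opposite ways. SPRY2 rose 1.38-fold in HCC44 (log2 fold change 0.47, SE 0.11, adjusted p 0.00852), and its value of -0.28 in H1975 was not called (adjusted p 0.0978). The difference between the lines was called, at 0.75 (SE 0.16, adjusted p 0.0106), under all 16 alternatives too. The HCC44 call was lost without HCC44 DMSO replicate 2, at 0.34 (adjusted p 0.0964).

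SPRED1 and SPRED2, whose products bring the RAS inactivator NF1 to the membrane, were called in neither line. SPRED1 was at 36.9 and 39.9 CPM in H1975 DMSO against 31.5 and 37.5 CPM with ACBI1, and at 60.4 and 70.7 against 56.7 and 59.8 CPM in HCC44. SPRED2 was at 74.0 and 80.5 CPM in H1975 DMSO against 63.0 and 66.0 CPM with ACBI1, and at 106 and 104 against 91.2 and 105 CPM in HCC44. The replicates overlapped for SPRED1 in H1975 and for SPRED2 in HCC44. The 95% intervals of the log2 fold change were -0.41 to 0.10 and -0.43 to 0.09 for SPRED1, and -0.47 to -0.05 and -0.31 to 0.10 for SPRED2, in H1975 and HCC44. SPRED2 in H1975 (-0.26, adjusted p 0.0581) was called as lower under 4 of 17 alternatives: with a replicate block, with the lines fitted separately, and with either HCC44 ACBI1 library left out.

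ETV4 and ETV5, closely related ETS-family transcription factors that CIC represses, did not share a response. ETV4 was at 35.7 CPM in both H1975 DMSO libraries and at 45.5 and 47.6 CPM with ACBI1. In HCC44 it was at 57.1 and 58.7 CPM with DMSO and at 96.3 and 112 CPM with ACBI1. It rose 1.30-fold in H1975 (log2 fold change 0.38, SE 0.10, adjusted p 0.0124) and 1.80-fold in HCC44 (0.85, SE 0.10, adjusted p 9.28e-05). The H1975 call was lost without H1975 DMSO replicate 1 (adjusted p 0.0606) and without H1975 ACBI1 replicate 2 (adjusted p 0.075), and library totals gave 0.59. The rise was larger in HCC44 by 0.46 (SE 0.14, adjusted p 0.0372). This call was lost under 10 of 16 alternatives, among them RLE factors (adjusted p 0.06), library totals (0.0853) and DESeq2 (0.0587). Over all 16 the difference ranged from 0.35 to 0.57.

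ETV5 was at 58.6 and 58.2 CPM in H1975 DMSO and at 51.8 and 51.0 CPM with ACBI1, and at 119.9 and 131 against 116 and 113 CPM in HCC44. All 4 ACBI1 libraries lay below the DMSO libraries of their line by a small margin. The log2 fold changes were -0.19 (SE 0.08, adjusted p 0.12) and -0.12 (SE 0.08, adjusted p 0.283), and neither was called. CIC itself, looked up after its values were seen, fell in H1975 from 60.4 and 57.4 to 44.4 and 43.4 CPM (-0.42 as log2, adjusted p 0.00381), and was at 185 and 171 against 176 and 184 CPM in HCC44, where it was not called (adjusted p 0.934).

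PHLDA1, a pleckstrin-homology-domain protein induced by growth factors, had the highest CPM of the 10 in every library. It was at 252 and 199 CPM in H1975 DMSO and at 205 and 187 CPM with ACBI1, ranges that overlapped. In HCC44 it was at 508 and 544 CPM with DMSO and at 855 and 857 CPM with ACBI1. PHLDA1 rose 1.63-fold in HCC44 (log2 fold change 0.70, SE 0.11, adjusted p 0.000713), while its -0.20 in H1975 was not called (adjusted p 0.202). The difference was 0.90 (SE 0.16, adjusted p 0.00354), and it and the HCC44 rise were called under every alternative run for them. Antisense genes cover 6.85% and 9.65% of its exon length, so part of its count is uncertain without the strand setting.

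**Figure D3:**
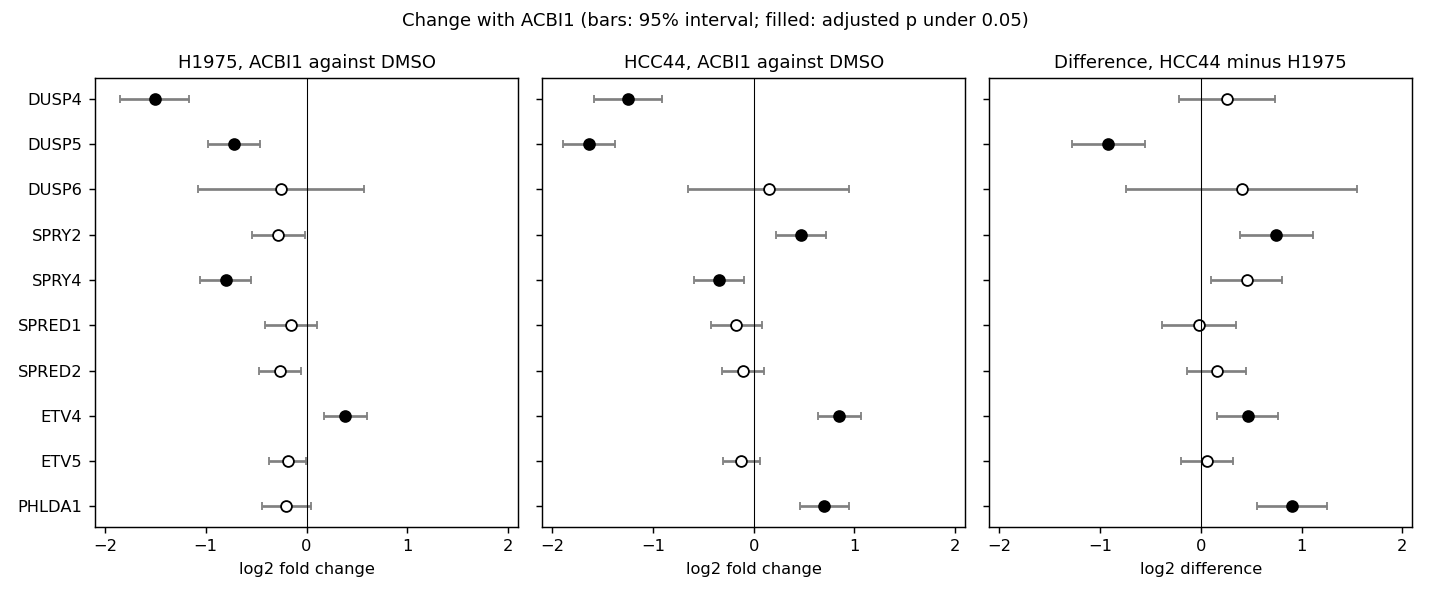
Log2 fold change of ACBI1 against DMSO in H1975 and HCC44, and the difference between them, for the 10 transcripts, with 95% intervals and filled points for adjusted p under 0.05. DUSP5 lies left of 0 in all panels (-0.72, -1.64 and a difference of -0.92), and PHLDA1 lies at -0.20, 0.70 and 0.90.

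The response differed between the lines for 4 of the 10 transcripts, 3 more positive and 1 more negative in HCC44, where 18.6% of all tested genes were called for this difference, 10.2% more positive and 8.4% more negative. With library totals the more positive genes made up 40.5% of these calls, against 54.9% with TMM. These were DUSP5, SPRY2, ETV4 and PHLDA1, with the values given above. For DUSP4, SPRED1, SPRED2 and ETV5 the 95% interval of the difference included 0, and it reached from -0.38 to 0.35 for SPRED1 and from -0.20 to 0.32 for ETV5. The DUSP6 interval was much wider, from -0.74 to 1.55, and without HCC44 DMSO replicate 1 the difference was 1.07 and called (adjusted p 0.0327).

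Most of these transcripts stood higher in HCC44 than in H1975 in the libraries without degrader. In DMSO, 9 of 10 were higher in HCC44 and none was lower, where 67.9% of all tested genes were called, 31.6% higher and 36.4% lower. The median log2 difference of the 10 was 0.94, beside -0.083 over all tested genes. DUSP6 was 5.54-fold higher in HCC44 (log2 2.47, SE 0.36, adjusted p 0.000585), SPRY4 4.02-fold (2.01, SE 0.12, adjusted p 7.7e-08) and SPRY2 3.70-fold (1.89, SE 0.12, adjusted p 1.5e-07). PHLDA1 was 2.33-fold, ETV5 2.15-fold, SPRED1 1.71-fold, DUSP5 1.64-fold, ETV4 1.62-fold and SPRED2 1.36-fold higher. DUSP4 was the exception, at 0.07 (95% interval -0.27 to 0.40, adjusted p 0.712). The libraries of the lines did not overlap for these 9 transcripts, as for 84.9% of all tested genes. The count of 9 was the same under all 16 alternatives run for it, and the DUSP6 value ranged from 1.81 without HCC44 DMSO replicate 1 to 2.92 without HCC44 DMSO replicate 2.

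Divided by the merged exon length of GENCODE release 29, levels can be set beside each other between genes. In H1975 DMSO, DUSP5 was highest at 52.6 CPM per kb (SD 0.753, n = 2), PHLDA1 followed at 27.9 (SD 4.62), and SPRED1 and SPRY4 were lowest at 4.65 (SD 0.253) and 4.75 (SD 0.806). Just above them were DUSP6 at 5.34 (SD 1.36) and SPRY2 at 5.92 (SD 0.0317). The DUSP6 libraries, at 4.38 and 6.30, overlapped the range of each of the others, so its place among these lowest 4 is not resolved. SPRED1 and SPRY4 overlapped each other, while both SPRY2 libraries lay above both of theirs. In HCC44 ACBI1, PHLDA1 led at 106 CPM per kb (SD 0.141), ahead of DUSP6 at 32.9 (SD 3.70), SPRY2 at 30.3 (SD 1.49), ETV4 at 28.9 (SD 3.06) and DUSP5 at 27.8 (SD 3.06). Neighbours in that run from DUSP6 to DUSP5 overlapped in their replicates, while DUSP6 and DUSP5 themselves did not. DUSP4 went from ninth place in HCC44 DMSO, at 13.2 CPM per kb (SD 1.75), to last with ACBI1, at 5.57 (SD 1.38).

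The genes whose pattern over the 8 libraries was nearest to that of DUSP6 were HLA-DPA1, KCTD15 and SPRY2. Against 11658 genes that averaged 5 CPM or more over the libraries, their gene-centred log2 CPM differed from that of DUSP6 by a root mean square of 0.30, 0.32 and 0.33. SPRY4 ranked 58th by the same measure and PHLDA1 242nd, while DUSP4 ranked 6717th. The likeness rests mainly on the step between the lines and is a description over libraries that share 2 lines.

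The family relatives of these genes were also split. In H1975, 3 of 11 relatives rose and 4 fell (median log2 value -0.33), against 31.3% of all tested genes called. In HCC44, 2 rose and 5 fell (median -0.46), against 34.9% called. These counts rested on single libraries: in H1975 they were 1 and 2 without ACBI1 replicate 1, 1 and 3 without ACBI1 replicate 2 or DMSO replicate 1, and 2 and 2 without DMSO replicate 2. In HCC44 they were 2 and 1 without ACBI1 replicate 2, and 2 and 2 without DMSO replicate 1, with library totals or with upper-quartile factors. SPRY1, another Sprouty gene, rose by 1.34 (SE 0.15, adjusted p 0.000137) in H1975, from 5.65 and 5.24 to 14.8 and 12.7 CPM, and by 0.92 (SE 0.15, adjusted p 0.000668) in HCC44, from 16.1 and 15.4 to 33.1 and 26.6 CPM. SPRED3 fell by 1.02 in H1975 (adjusted p 0.00151), and DUSP10, a phosphatase of p38 and JNK, fell by 0.95 (adjusted p 0.00121). In HCC44, DUSP16 rose by 0.62 (adjusted p 0.000362) and DUSP7, a cytoplasmic ERK phosphatase, fell by 0.60 (adjusted p 0.000809). DUSP1, the immediate-early phosphatase of the family, fell in both lines, with log2 fold changes of -1.19 (adjusted p 0.0422) in H1975 and -1.52 (adjusted p 0.0155) in HCC44. Those DUSP1 calls were lost under 11 and 8 of 17 alternatives, with adjusted p-values up to 0.328 and 0.153, and every single library of H1975 left out ended the call in H1975. The HCC44 value was -0.79 without HCC44 DMSO replicate 1 and -2.003 without HCC44 DMSO replicate 2.

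Among 17 other ERK-induced transcripts, 1 rose and 6 fell in H1975 (median -0.66), which is 41.2% called against 31.3% of all tested genes. In HCC44, 2 rose and 4 fell (median -0.25), which is 35.3% called and near the 34.9% of all tested genes. The urokinase receptor gene PLAUR fell in both lines, from 107 and 102 to 56.2 and 46.1 CPM in H1975 (-1.03, adjusted p 9.19e-05) and from 134 and 136 to 34.0 and 30.6 CPM in HCC44 (-2.06, adjusted p 8.75e-07). In H1975, EPHA4 fell by 1.76 (adjusted p 0.0013), the secreted peptide precursor VGF by 1.53 (adjusted p 1.46e-05) and IER3 by 1.24 (adjusted p 0.000234). In HCC44, the EGFR ligand HBEGF fell by 1.74 (adjusted p 0.000781), the AP-1 subunit FOSL1 by 0.99 (adjusted p 0.00286) and the receptor EPHA2 by 0.77 (adjusted p 5.62e-05). Called genes that rose had smaller changes than these falls and are not named. The highest values of the list were 0.43 in H1975 and 0.58 in HCC44. The immediate-early genes EGR1, FOS and FOSB were called in neither line, with log2 values of -0.54, -0.66 and -0.02 in H1975 and -0.37, 0.04 and 0.20 in HCC44.

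Upstream of ERK, 0 of 15 receptors and adaptors rose and 4 fell in H1975, which is 26.7% called against 31.3% of all tested genes. In HCC44, 5 rose and 3 fell, which is 53.3% against 34.9%. The H1975 calls numbered 2 with RLE factors and without DMSO replicate 2 or either ACBI1 library, 7 with no filter and 8 with a replicate block. In HCC44, 1 rose and 2 fell without DMSO replicate 1, and 2 rose and 3 fell without DMSO replicate 2 or ACBI1 replicate 2. FRS2, the adaptor of FGF receptors, fell by 0.64 (adjusted p 0.00134) in H1975. The receptor AXL fell by 1.24 (adjusted p 0.00318) in HCC44, from 377 and 411 to 158 and 176 CPM. The adaptors GAB1 and SHC1 rose in HCC44 by 0.51 (adjusted p 0.0142) and 0.42 (adjusted p 0.00962), calls lost under 2 and 3 of 17 alternatives. EGFR was called in neither line, at -0.37 (adjusted p 0.159) and 0.15 (adjusted p 0.553). Among 18 kinases and ERK-regulated factors, 1 rose and 6 fell in H1975 (38.9% called against 31.3% of all tested genes), and 2 rose and 6 fell in HCC44 (44.4% against 34.9%). In H1975 the calls numbered 4 without ACBI1 replicate 2 and 11 with a replicate block. In HCC44 they numbered 2, all lower, without DMSO replicate 2, and 5 with library totals and without DMSO replicate 1 or ACBI1 replicate 2. RPS6KA2, a ribosomal S6 kinase activated by ERK, fell in H1975 (-0.85, adjusted p 0.00069) and in HCC44 (-1.42, adjusted p 2.26e-05). MAP2K1, a MEK gene, fell in HCC44 (-0.82, adjusted p 5.7e-05) and in H1975 (-0.37, adjusted p 0.008). SRF rose in both lines, by 0.72 (adjusted p 0.00161) in H1975 and by 0.37 (adjusted p 0.0405) in HCC44. The HCC44 call of SRF was lost under 5 of 17 alternatives.

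Of 9 brakes that act upstream of ERK, 2 rose and 3 fell in H1975, and 3 rose and 2 fell in HCC44, which is 55.6% called in each against 31.3% and 34.9% of all tested genes. In H1975, 2 rose and 0 fell with library totals and without either ACBI1 library, and 2 rose and 1 fell with RLE or upper-quartile factors and without H1975 DMSO replicate 2 or either HCC44 DMSO library. In HCC44 the calls numbered 1 without HCC44 DMSO replicate 2, and 3 with the lines fitted separately and without any other single HCC44 library or either H1975 ACBI1 library. RASAL1, a RAS GTPase-activating protein, rose by 1.87 in H1975 (SE 0.32, adjusted p 0.00164), from 0.81 and 0.75 to 3.63 and 2.09 CPM. DAB2IP, of the same class, rose there by 0.62 (adjusted p 0.00195). LZTR1 and PEBP1 fell in H1975 by 0.40 (adjusted p 0.0422) and 0.33 (adjusted p 0.015), calls lost under 10 and 5 of 17 alternatives. RASA1 fell in HCC44 by 0.49 (adjusted p 0.00588), a call kept under all 17 alternatives. ERRFI1, an inhibitor of EGFR, rose by 0.65 in HCC44 (SE 0.17, adjusted p 0.0155), from 611 and 554 to 1090.4 and 736 CPM. That ERRFI1 call was lost without HCC44 DMSO replicate 2 (0.58, adjusted p 0.0932) and without HCC44 ACBI1 replicate 1 (0.34, adjusted p 0.0678).

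**Figure D4:**
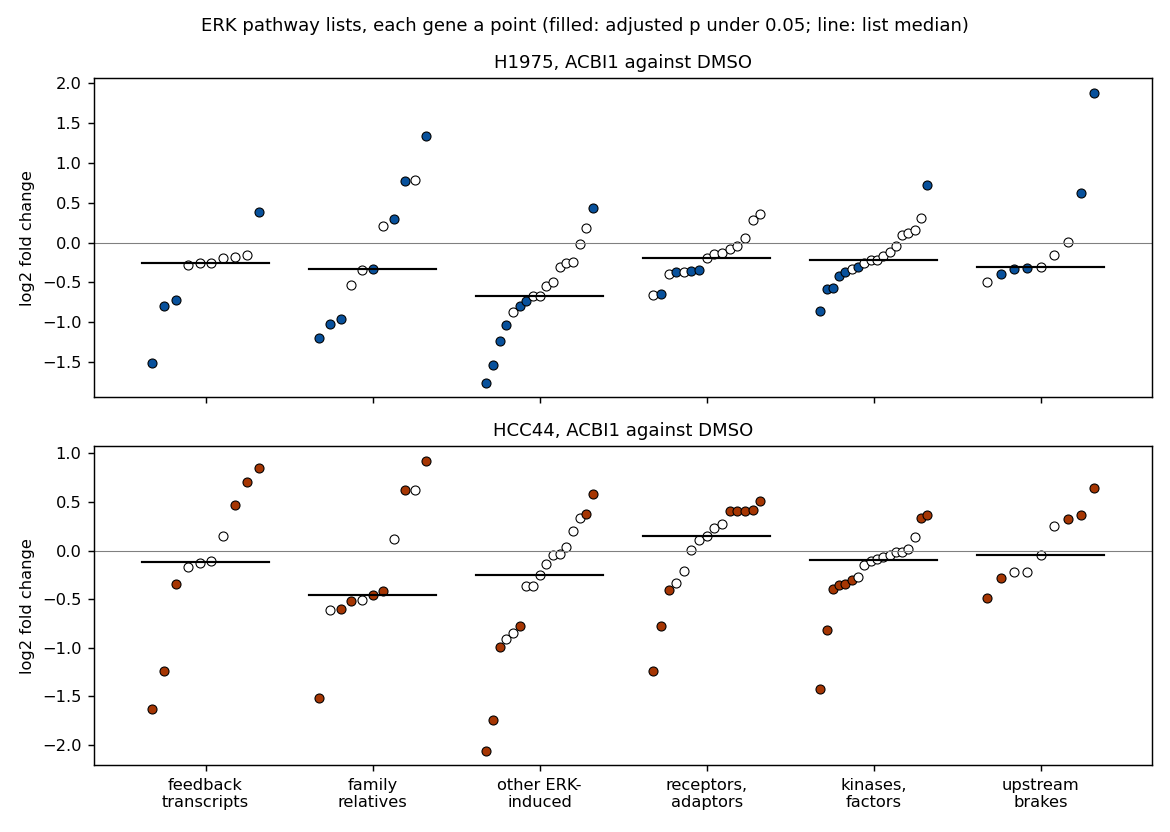
Log2 fold change of ACBI1 against DMSO for the 10 feedback transcripts and 5 further ERK pathway lists, 1 point per gene, filled where the adjusted p was under 0.05, with a line at the list median. The feedback transcripts span -1.51 to 0.38 in H1975 and -1.64 to 0.85 in HCC44, and each further list also holds genes on both sides of 0.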

How the data were processed

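RNA was sequenced from 8 libraries of 2 lung cancer cell lines, in 4 groups of 2. The authors deposited whole-number read counts per gene name, 1 table per library, not normalized. TopHat2 2.1.1, HTSeq 0.11.0 and the build hg38 are named per the submitters' processing notes, while the annotation and the strand setting are not given in the sources used here. The 5 HTSeq summary rows, 14.3 to 15.8% of all counts in a library, entered neither the library sizes nor the tests. No replicate pair agreed within sampling noise (chi-square over its degrees of freedom, 21.7 to 43.5).

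Genes were filtered with filterByExpr, scaled with TMM factors and fitted in 1 model over all 8 libraries, with 4 residual degrees of freedom, in edgeR 4.0.16 under R 4.3.3. Two-sided quasi-likelihood F-tests with robust dispersion gave log2 fold changes, and p-values were Benjamini-Hochberg adjusted over all 21307 tested genes. Standard errors were derived from the log2 fold change and its F. The procedure was also run on counts simulated from its own fitted means and dispersions, with far fewer changed genes than were called here. Such a run cannot check the spread between the real replicates or the scaling. Alternatives covered DESeq2 1.42.0, other scalings and filters, each line alone, the replicate number as a block, a threshold of 0.01 and each library left out. From each further list, up to 4 called genes with the largest change and at least 1 CPM could be named; other genes of the lists are given as values and were picked after these were seen. Some results on individual genes of the lists are not reported here. Figures used matplotlib 3.10.9. The members and lists were chosen with earlier results of these data known.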

Additional observations from a re-analysis of the deposited data

Results flagged for a closer look

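Responses that differed between the lines by the test of the difference itself, HCC44 minus H1975, are listed as log2 values. Among the feedback transcripts the difference was -0.92 for DUSP5, 0.75 for SPRY2, 0.46 for ETV4 and 0.90 for PHLDA1. Among their relatives it was -1.28 for DUSP2 and -0.63 for DUSP8. Among other ERK-induced transcripts it was 1.87 for VGF, 1.17 for KLF10, -1.03 for PLAUR and -0.95 for EPHA2. Among receptors and adaptors it was 0.77 for ERBB2, 0.76 for SHC1, 0.60 for MET and 0.60 for FGFR1. Among kinases, factors and brakes it was -0.45 for MAP2K1, -0.57 for RPS6KA2, 0.44 for CIC, -2.09 for RASAL1 and 1.15 for ERRFI1. Among antisense transcripts it was 1.29 for PHLDA1-AS1 and 1.54 for SPRY4-AS1.

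Each further gene after the feedback transcripts kept its sign under all 16 alternatives. Calls were lost under 8 alternatives for CIC, 7 for DUSP8, 6 for RPS6KA2, 5 for MAP2K1 and SPRY4-AS1, 4 for MET, 3 for FGFR1, and 1 for ERRFI1 and DUSP2. All but 2 of these losses came with a single library left out, the exceptions being CIC with library totals and RPS6KA2 with non-robust dispersion.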

How the results depend on the processing

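Over 650 recomputed values of the 10 transcripts, 605 kept direction and side of the threshold, 19 lost a call, 9 gained one and 17 changed sign, each of the last in a value that was not called. With library totals, SPRED1, ETV5 and PHLDA1 in H1975 were 0.048, 0.018 and 0.0039, the ETV5 difference between the lines was -0.051 and DUSP4 in HCC44 DMSO against H1975 DMSO was -0.049 (-0.0031 with upper-quartile factors). With each library left out in turn, DUSP6 ranged from -0.44 to 0.023 in H1975, -0.30 to 0.81 in HCC44 and -0.044 to 1.07 in the difference. SPRED1 ranged from -0.27 to 0.00036 in H1975 and -0.17 to 0.11 in the difference, ETV5 from -0.0032 to 0.13 and DUSP4 from -0.013 to 0.50 in the difference, DUSP4 from -0.070 to 0.19 between the lines in DMSO, and DUSP5-DT from -0.84 to 0.18 in the difference. Genes called ranged in the same way from 3690 (without H1975 ACBI1 replicate 2; 4342 without H1975 DMSO replicate 1) to 7161 in H1975, 4945 (without HCC44 DMSO replicate 2) to 7342 in HCC44 and 2341 (without HCC44 DMSO replicate 1; 2598 without its replicate 2, 2481 without H1975 ACBI1 replicate 2) to 4134 for the difference, against 6663, 7438 and 3967. Fewer libraries enter each of these fits. At an adjusted p under 0.01, 3691, 4681 and 1654 genes were called, and 2 of the 10 transcripts for the difference.

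With the replicate number as a block, 6358 genes were called for the difference. The block added SPRED2 in H1975 (-0.26, adjusted p 0.0182) and the SPRY4 difference (0.45, adjusted p 0.0159) and ended no call of the 10 transcripts. The deviations of libraries that share a number correlated at 0.374 (H1975) and 0.109 (HCC44), and the labels name no shared batch.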

Other observations

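Transcripts that carry a member's symbol and lie antisense or divergent to it were looked at after their values were seen. DUSP5-DT, the divergent transcript beside DUSP5, had 52 and 52 counts in H1975 DMSO and 12 and 7 with ACBI1, and 92 and 103 against 18 and 9 counts in HCC44. It fell 5.99-fold in H1975 (log2 -2.58, SE 0.41, adjusted p 0.000991) and 7.12-fold in HCC44 (-2.83, SE 0.38, adjusted p 0.000237), in the same direction as DUSP5, and both calls were kept under all 17 alternatives. PHLDA1-DT had 21 and 21 counts in HCC44 DMSO and 67 and 68 with ACBI1, a rise of 3.22-fold (1.69, SE 0.36, adjusted p 0.00399), and was not called in H1975 (0.60, adjusted p 0.278). PHLDA1-AS1 rose 1.95-fold in HCC44 (0.97, SE 0.19, adjusted p 0.00237), from 263 and 257 to 513 and 498 counts.

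SPRY4-AS1 went the other way from SPRY4 in HCC44. It had 23 and 25 counts with DMSO and 92 and 79 with ACBI1, a rise of 3.57-fold (log2 1.84, SE 0.29, adjusted p 0.000657), where SPRY4 was lower. In H1975 it had 84 and 70 counts with DMSO and 109 and 101 with ACBI1 and was not called (0.30, adjusted p 0.408). In DMSO it was 3.08-fold lower in HCC44 than in H1975 (-1.62, SE 0.29, adjusted p 0.000442), opposite to SPRY4. ETV5-AS1 was at 0 counts in all 8 libraries. The strand setting is not given, so reads of these transcripts and of their partners could not be told apart where they overlap.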
